A study of Mus musculus with 4 samples.

Results

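The cell cycle genes followed here were a fixed set of 35 symbols, found by name among the 32286 genes counted in 4 single-cell libraries from mouse spine. They comprised 22 genes of the late G2 phase and of mitosis, 11 genes of DNA replication and nucleotide supply, and Hmgb2 and Stmn1, which were listed apart. A cell was called a carrier when at least 5 of the 35 genes had a unique molecular identifier (UMI, one counted RNA molecule) in it. Of the 1757 cells that passed the filter on depth and mitochondrial RNA, 288 were carriers, or 16.4% (exact Clopper-Pearson 95% interval 14.7 to 18.2%). A narrower group, the cells with at least 5 of the 22 mitotic genes, counted 71, or 4.04% (3.17 to 5.07%). It is called mitotic below for the genes that define it, and its limit was set after the values were seen.

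The study asked what loss of Nf1, a negative regulator of RAS signalling, does in spine cells that descend from Prss56-expressing boundary cap cells of the embryonic nerve roots. TdTomato-positive cells were sorted from T11 to L2 vertebrae at 3 and at 12-16 months of age, after cells stained for CD11b, CD31 or CD45 and dead cells were discarded, and their 3′ RNA ends were counted on the 10x Genomics platform. The libraries labelled control carried Prss56Cre/+;R26tdTom/tdTom;Nf1+/+, and the libraries labelled mutant carried Prss56Cre/Cre;R26tdTom/tdTom;Nf1fl/fl. All groups therefore carry the Cre and the reporter, but the controls have a single Cre allele and the mutants have Cre on both, so that Cre dose and Nf1 genotype cannot be told apart. Each condition is 1 library, so no test between conditions is possible. All intervals cover counting error only, and every difference below is a difference between libraries.

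In a dividing cell the cycle runs through G1, DNA synthesis, G2 and mitosis. Cyclin D with CDK4 or CDK6 drives the passage out of G1 by phosphorylating the retinoblastoma family of pocket proteins, which releases E2F factors and switches on the replication genes, while CDK inhibitors hold it back. Mitotic genes are repressed in resting cells by the DREAM complex, which is bound at CHR elements, and are switched on later through B-MYB, FOXM1 and the CCAAT-binding factor NF-Y. Adult chondrocytes of the endplate and disc, osteocytes and most osteoblasts divide rarely, whereas erythroid, B-lineage and granulocyte precursors of the marrow divide often.

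The passing cells numbered 717 in the 3-month control library, 484 in the 3-month mutant, 135 in the 12-16-month control and 421 in the 12-16-month mutant, with medians of 11467, 12644, 11702 and 8189 UMIs per cell. No barcode was shared between libraries. Gates on raw UMIs then divided the cells. The cartilage gate (at least 1 Sox9 and at least 3 Acan UMIs) took 1286 cells, the bone/stroma gate (at most 2 Acan, at least 1 Runx2 and no Ptprc UMI) took 161, and the blood gate (any Ptprc, Prtn3 or Cd79a UMI without Sox9) took 121. Of these, 11 cells were in both the bone/stroma and the blood gate, and 200 cells were in none. The cartilage collagen gene Col2a1 was detected in 89.7% of the cartilage-gated cells, and Col1a1 and Ibsp, 2 bone matrix genes, in 81.4% and 87.0% of the bone/stroma-gated cells. Col2a1 was also detected in 44.7% of the bone/stroma-gated cells. Ptprc, which encodes the CD45 used to discard blood cells in the sort, was detected in 71.9% of the blood-gated cells. Since Ptprc helps to define that gate, its share is no check of it. The general blood genes Coro1a and Plac8, which do not enter the gate, were detected in 73.6% and 55.4%. Nf1 itself was at 131, 149.7, 147 and 125 CPM (counts scaled to a library total of 1000000) in the same order of libraries. Reads come from 3′ ends and the place of the deleted exons is not given in the sources used here, so this level does not check the labels.

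The promoters show how the mitotic and replication genes differ in sequence. RefSeq promoters of build GRCm38.p6 matched 29 of the 35 genes, and each holds 250 bases before and 50 bases after the annotated start. The letters of the CHR (TTTGAA or TTCGAA), of the CCAAT box (CCAAT) and of the E2F site (TTTGGCGC or TTTCGCGC) were searched on both strands. The CHR was present in 14 of 18 mitotic promoters (77.8%), in 2 of 11 replication promoters (18.2%) and in 19.2% of all 32851 promoters. All 14 of these mitotic promoters also held a CCAAT box, and CHR and CCAAT occurred together in 7.52% of all promoters. CCAAT was found in 16 of 18 mitotic and 9 of 11 replication promoters, against 37.4% of all. The E2F letters were found in 4 replication promoters (36.4%), those of Mcm3, Mcm5, Mcm6 and Mcm7, in that of the mitotic kinase gene Cdk1, and in 0.813% of all promoters. The 250 bases before the start are printed for the 2 mitotic genes with the largest and the 2 replication genes with the smallest share of UMIs in mitotic cells, described below, among genes with a promoter entry. Capitals mark matches to any of the letters.
Ube2c: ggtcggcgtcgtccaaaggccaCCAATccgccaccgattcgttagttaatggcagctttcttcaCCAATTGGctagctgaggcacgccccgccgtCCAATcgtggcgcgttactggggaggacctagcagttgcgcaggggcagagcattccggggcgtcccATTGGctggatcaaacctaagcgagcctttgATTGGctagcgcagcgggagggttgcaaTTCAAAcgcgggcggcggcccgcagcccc
Mki67: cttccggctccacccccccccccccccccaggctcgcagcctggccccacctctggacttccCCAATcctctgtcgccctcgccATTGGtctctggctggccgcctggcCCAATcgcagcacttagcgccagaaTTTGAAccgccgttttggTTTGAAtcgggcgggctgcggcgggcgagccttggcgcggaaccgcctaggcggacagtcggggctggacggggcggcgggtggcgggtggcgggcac
Mcm6: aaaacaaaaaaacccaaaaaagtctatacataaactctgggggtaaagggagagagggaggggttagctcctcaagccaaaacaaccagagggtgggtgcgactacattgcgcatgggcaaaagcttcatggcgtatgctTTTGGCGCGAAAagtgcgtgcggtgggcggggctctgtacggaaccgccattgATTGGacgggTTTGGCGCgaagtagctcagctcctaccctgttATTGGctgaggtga
Pcna: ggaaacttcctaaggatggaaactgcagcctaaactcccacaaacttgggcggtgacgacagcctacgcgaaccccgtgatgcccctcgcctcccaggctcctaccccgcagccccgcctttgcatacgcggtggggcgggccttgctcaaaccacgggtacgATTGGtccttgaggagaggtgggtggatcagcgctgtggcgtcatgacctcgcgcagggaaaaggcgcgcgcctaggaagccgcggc
They lie at chr2:164769679-164769928 on the plus strand for Ube2c, and on the minus strand at chr7:135716380-135716629 for Mki67, chr1:128359706-128359955 for Mcm6 and chr2:132253181-132253430 for Pcna. Ube2c had 1 CHR, 29 bases before the start, and 6 CCAAT matches, of which those 186 and 183 bases before the start overlap. Mki67 had 2 CHR matches, 116 and 98 bases before the start, and 3 CCAAT boxes. Mcm6 had no CHR, 2 CCAAT boxes and 3 E2F matches, of which those 110 and 106 bases before the start overlap. Pcna had 1 CCAAT box, 87 bases before the start, and neither of the other motifs. These are matches of letters only, and binding at them was not measured.

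Carriers were spread very unevenly over the gates. They made up 157 of 1286 cartilage-gated cells, or 12.2% (10.5 to 14.1%), and 18 of 161 bone/stroma-gated cells, or 11.2% (6.76 to 17.1%). In the blood gate 60 of 121 cells were carriers, or 49.6% (40.4 to 58.8%), and among cells in no gate 54 of 200, or 27%. By library the share was 21.8% in the 3-month control, 14.05% in the 3-month mutant, 15.6% in the 12-16-month control and 10.2% in the 12-16-month mutant. The share in the 3-month control library moved with its shallow cells. That library held 90 passing cells under 3000 UMIs, against 10, 20 and 40 in the others, and 20 of its 30 blood-gated cells were under 2000 UMIs. Over cells of more than 2000 UMIs the share was 15.3% in that library and 14.3%, 15.8% and 10.5% in the others.

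Most cartilage carriers held few cell cycle genes. In the cartilage gate the number of cells fell from 201 with 4 genes to 98 with 5, 34 with 6, 16 with 7, 1 with 8 and 1 with 9, and no cell lay between there and 21 genes. The remaining 7 cells had 21, 27, 29, 29, 32, 34 and 35. Cells just below the limit, with 4 genes, had a median of 0 mitotic and 3 replication genes, and cells just above it, with 5, had 1 and 3.5. The 150 cartilage carriers outside the group of 7 had a median of 1 mitotic gene, and 63 of them (42%) had none. Their mitotic genes summed to 39.7 CPM, against 5697 CPM in the 7 cells. Their replication genes summed to 253 CPM, against 1635 CPM.

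The carrier share in cartilage also moved with depth. With the cartilage-gated cells ordered by UMIs and cut into 4 equal groups, it was 3.42%, 6.23%, 12.8% and 26.4%, and all 7 mitotic cells were in the deepest group. For a comparison at 1 depth, cells were thinned to 2000 UMIs and 113 shallower cells were left out, 77, 9, 15 and 12 by library. The average of 20 draws gave 6.6 carriers among 1272 cartilage-gated cells (0.519%), where the same cells had 157 unthinned (12.3%). After thinning, the share was 3.799% in the bone/stroma gate, 23.7% in the blood gate and 6.11% outside the gates. By library it was 2.24%, 2.82%, 2.83% and 2.82% in the order above. The cells left out of the 3-month control held many of its carriers, since 98 of its 156 remained, and 10 of its 30 blood-gated cells were thinned. The thinned shares therefore describe the deeper cells of each library.

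**Figure D1:**
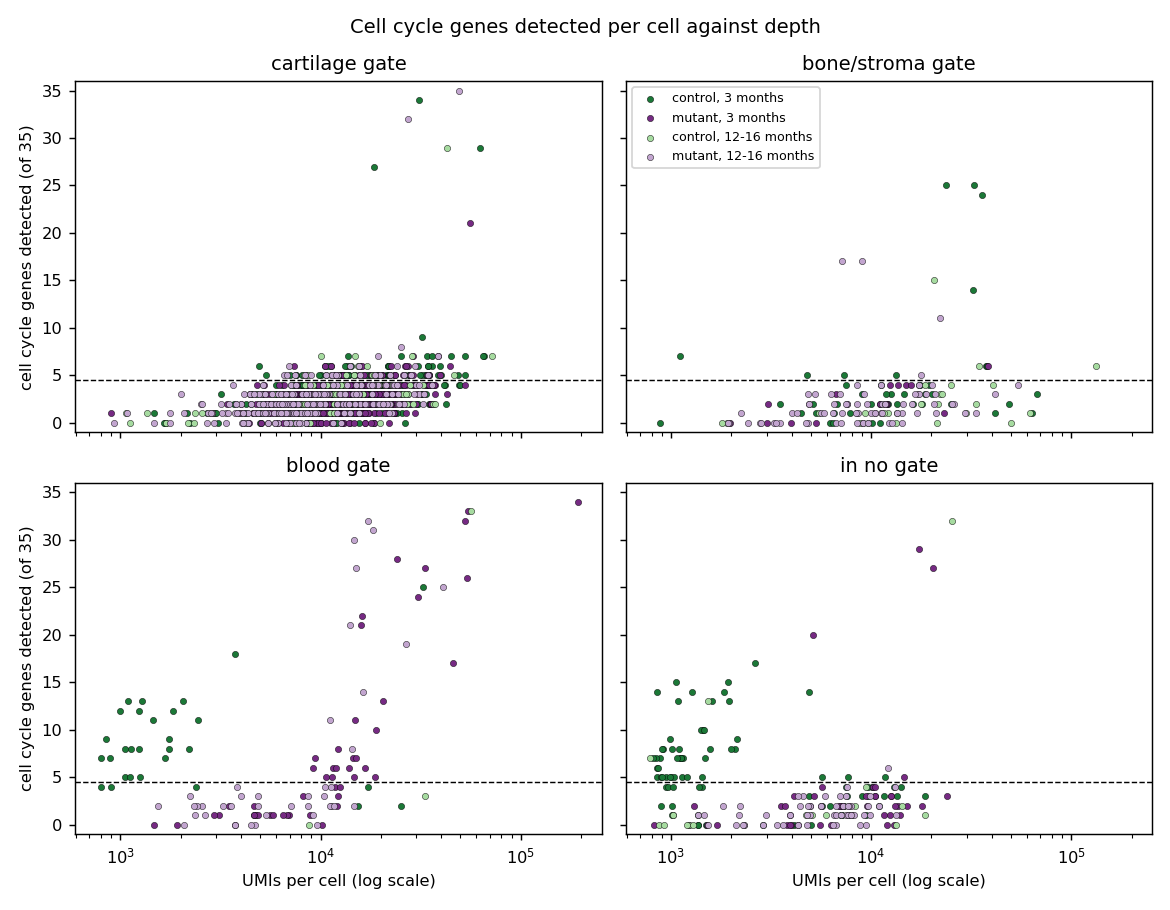
Number of the 35 cell cycle genes detected in each cell (vertical axis) against UMIs in the cell (log scale), for the cartilage, bone/stroma and blood gates and for cells in no gate, coloured by library, with a dashed line below 5 genes. In cartilage a dense band reaches up to 9 genes with rising depth and 7 cells stand apart at 21 to 35, whereas the blood-gated cells and the cells in no gate fill the range from 0 upwards, many of them under 3000 UMIs.

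Almost the whole mitotic signal lay in very few cells. The 22 mitotic genes had 5835 UMIs in all passing cells. Carriers held 95.05% of them and the 71 mitotic cells 89.3%, and 10 cells, 0.569% of all, held at least 50% of them. A single cell held 573 of these UMIs (9.82%). The 11 replication genes, with 5959 UMIs, were spread more widely. The mitotic cells held 33.7% of them, and 162 cells (9.22%) were needed to reach 50%.

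The 71 mitotic cells were mostly of blood or of no gate. They numbered 34 in the blood gate (28.1%), 24 outside the gates (12%), 7 in bone/stroma (4.35%, interval 1.77 to 8.75%) and 7 in cartilage (0.544%, 0.219 to 1.12%), with 1 cell counted in both the bone/stroma and the blood gate. By library they numbered 40, 14, 4 and 13. In cartilage they were 3 of 562 cells in the 3-month control library, 1 of 377 in the 3-month mutant, 1 of 89 in the 12-16-month control and 2 of 258 in the 12-16-month mutant. The exact intervals of these shares, 0.110 to 1.55%, 0.00672 to 1.47%, 0.0284 to 6.10% and 0.0940 to 2.77%, overlap one another. They cover the counting error of cells only. With 1 library per condition, a difference between conditions in the share of mitotic cartilage cells was not tested.

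Each gene's UMIs were then divided between mitotic and other cells. Since mitotic genes define the group, their shares describe the choice and are not a test. For the mitotic genes the share in mitotic cells ran from 67.3% for Kif20a, a kinesin of cytokinesis, to 96.5% for Ube2c, the ubiquitin-conjugating enzyme that works with the anaphase-promoting complex, with a median of 88.7%. For the replication genes, which did not enter the choice, it ran from 15.4% for Mcm6 to 89.3% for Rrm2, with a median of 50%. Hmgb2 stood at 51.1% and Stmn1 at 82.0%.

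**Figure D2:**
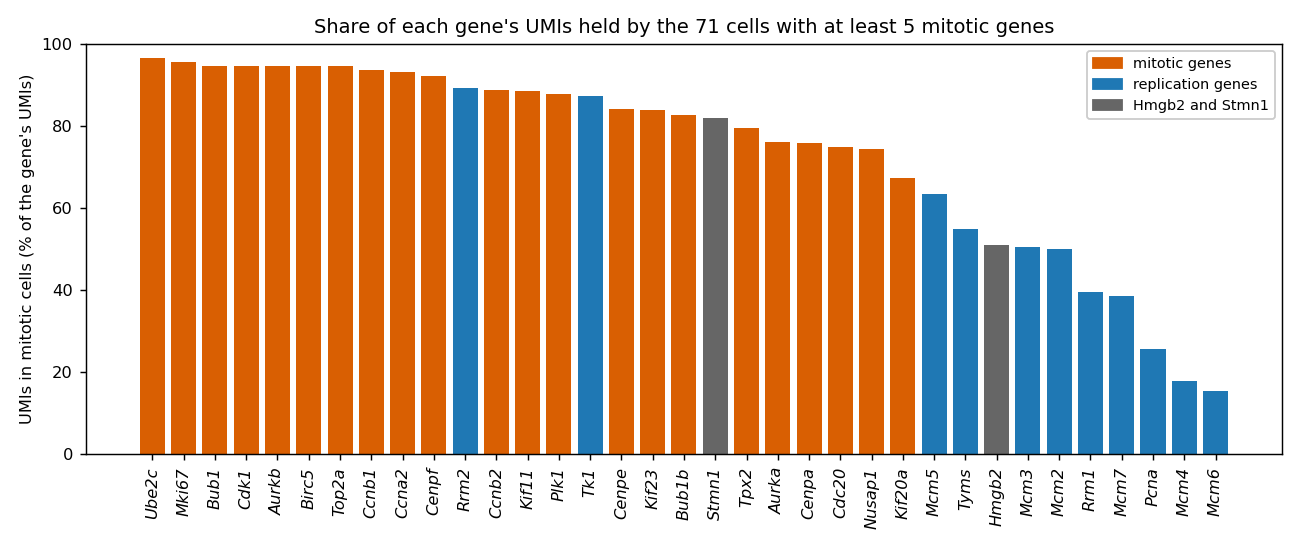
Share of each of the 35 genes' UMIs (vertical axis, percent of the gene's UMIs over all passing cells) that lay in the 71 cells with at least 5 mitotic genes, ordered from highest to lowest and coloured by list. Among the replication genes, Rrm2 and Tk1 stand with the mitotic genes at 89.3% and 87.3%, and Mcm6, Mcm4 and Pcna form the low end at 15.4%, 17.9% and 25.8%.

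Mki67 and Top2a were among the genes most confined to mitotic cells. Mki67 encodes the Ki-67 protein that coats mitotic chromosomes. It had 820 UMIs in 90 of 1757 cells (5.12%), and 95.7% of them lay in mitotic cells. In cartilage it was detected in 13 cells. The 7 mitotic cells had 24, 20, 4, 12, 28, 94 and 26 UMIs of it, in the order 3-month control (3 cells), 3-month mutant (1), 12-16-month control (1) and 12-16-month mutant (2), and 6 of the 1279 other cells had a single UMI each. Top2a, the topoisomerase that untangles sister chromatids, had 826 UMIs in 96 cells. Its values in the same 7 cells were 46, 34, 3, 10, 18, 88 and 61, with 7 UMIs in 6 other cartilage cells. Both genes were present in every mitotic cartilage cell and nearly absent from the rest. They also helped to choose the mitotic cells, so this describes the choice and is no test.

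The cyclin and kinase genes of mitotic entry followed the same pattern with fewer UMIs. Cdk1, the kinase of mitotic entry, had 10, 26, 5, 6, 9, 32 and 11 UMIs in the 7 cells and 9 UMIs in 9 other cartilage cells. Ccnb1, the cyclin B1 gene, was found in 5 of the 7 cells, with 27 UMIs, and in no other cartilage cell. Ccnb2, its relative, was in all 7 with 75 UMIs and in 18 others with 19. Ccna2, the cyclin of S and G2 phase, had 56 UMIs in 6 of the 7 and 4 in others. The single mitotic cell of the 3-month mutant library lacked both Ccnb1 and Ccna2.

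The kinases and checkpoint genes were sparse. Plk1, a kinase of spindle assembly, had 91 UMIs in 30 of all passing cells, Aurka, the centrosomal Aurora kinase, 75 in 44, and Aurkb, the Aurora kinase of the chromosomal passenger complex, 111 in 37. Birc5, which encodes the passenger protein survivin, was more often counted, with 387 UMIs in 66 cells, 94.6% of them in mitotic cells. The spindle checkpoint kinases Bub1 and Bub1b had 57 UMIs in 26 cells and 127 in 56. Cdc20 and Ube2c act with the anaphase-promoting complex. Cdc20 had 163 UMIs in 68 cells and Ube2c 373 in 52. In cartilage, 32 of the 63 Cdc20 UMIs lay outside the 7 mitotic cells, against 5 of 112 for Ube2c.

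The kinetochore and spindle genes covered a continuous range. Cenpf, which binds kinetochores, had 394 UMIs in 74 cells with 92.1% in mitotic cells, and Cenpe, the kinetochore motor, 165 in 55 with 84.2%. Cenpa, the centromeric histone, was wider, with 344 UMIs in 106 cells and 75.9%. Of the kinesins, Kif11 of the bipolar spindle reached 88.6%, Kif23 of the midbody 83.9% and Kif20a 67.3%. Tpx2, a spindle assembly factor, and Nusap1, a microtubule-binding protein, were the mitotic genes most often seen in other cartilage cells. Nusap1 had 58 UMIs in 50 of the 1279 cells and Tpx2 had 48 in 39. Most of these cells had a single UMI.

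The replication genes showed a wide base in non-mitotic cartilage. The MCM genes encode the replicative helicase. Mcm6 was detected in 604 of the 1279 other cartilage cells with 1127 UMIs, and in the 7 mitotic cells it had 37 UMIs, a ratio of 2.06 (95% interval 1.44 to 2.86) in CPM. Mcm4 gave a ratio of 2.84 (1.61 to 4.68). The remaining helicase genes were farther apart between the cell groups. Mcm5 gave 35.6 (20.9 to 59.5), Mcm2 16.7 (8.99 to 29.4), Mcm3 13.6 (8.47 to 21.2) and Mcm7 11.9 (8.25 to 16.9). The 6 subunits of a single complex therefore differed widely in how far they were confined to mitotic cells, with Mcm4 and Mcm6 apart from the rest.

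Pcna, the sliding clamp of DNA polymerase that also serves in DNA repair, was in 605 of the 1279 other cartilage cells and stood 6.67-fold (5.38 to 8.19) higher in the 7. The genes of nucleotide supply spanned the range. Rrm2, the regulated subunit of ribonucleotide reductase, was 262-fold (153 to 474) higher in the 7 cells, and Tk1, the thymidine kinase, 340-fold (150.2 to 904). Rrm1, the other reductase subunit, was 16.9-fold (12.6 to 22.4) higher and Tyms, thymidylate synthase, 16.8-fold (11.4 to 24.3). These intervals treat the UMIs of a cell as independent, and the 7 cells are few.

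Hmgb2, a chromatin protein, and Stmn1, a microtubule destabiliser, differed in how widely they were counted. Hmgb2 was found in 64.4% of all passing cells and was 18.6-fold (17.0 to 20.4) higher in the mitotic cartilage cells, with 30 to 130 UMIs in each. Stmn1 was found in 11.6% of all passing cells and was 669-fold (508 to 896) higher, with 33 to 158 UMIs in each of the 7 and 56 UMIs in 44 of the other 1279. Hmgb2 was counted in 835 of the 1279 other cartilage cells. Without Hmgb2 and Stmn1 the carrier share in cartilage was 4.82%, against 12.2% with them.

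The 7 mitotic cartilage cells were deep and carried cartilage genes. Their UMIs numbered 31073, 62489 and 18390 UMIs in the 3-month control, 55993 in the 3-month mutant, 42618 in the 12-16-month control, and 48919 and 27351 in the 12-16-month mutant, against a median of 12114 in the gate. Their mitotic UMIs numbered 235, 252, 133, 36, 110, 573 and 295. All 7 had Col2a1, at 32 to 699 UMIs. Matn3, a matrilin gene of cartilage matrix, was detected in 284 of the 1286 cartilage-gated cells (22.1%), so most cells of the gate lacked it. Among the 7 it was at 50, 69, 98, 135 and 78 UMIs in 5 and absent from 2 cells of the 3-month control. Of these 2, the cell with 62489 UMIs had its bone markers as the highest list, at 1397 UMIs. It held 1091 UMIs of Ibsp and 206 of Col1a1 beside 17 of Sox9. The cell with 18390 UMIs had its fibroblast markers as the highest list and was called a doublet by the steps of Scrublet. None of the 7 had a UMI of Ptprc, Prtn3, Cd79a, Hbb-bs or Hba-a1. Of the whole blood marker lists, the neutrophil list had 2 UMIs and the monocyte and macrophage list 1 UMI over the 7 cells, and the B cell, T or NK, granulocyte progenitor, erythroid and general blood lists had 0.

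The 7 cells also differed in the balance of the lists. The cell of the 3-month mutant library had 9 mitotic and 10 replication genes, with 36 mitotic and 89 replication UMIs, and lacked Cenpa, Cenpe, Cenpf, Plk1 and Aurkb. The cell of the 12-16-month control had 16 and 11 genes. The cell with 18390 UMIs had the reverse balance, with 21 mitotic and 4 replication genes and with 133 and 12 UMIs. The E-type cyclin gene Ccne2, of the G1 to S passage, had 12 UMIs in the first-named 3-month control cell, 13 in the 12-16-month control cell and 2 in the mutant cell of 3 months, and none in the other 4. TdTomato had no UMI in any of the 7, and was found in 102 of the 1279 other cartilage cells (7.97%). The reporter transcript was rarely counted in any cell.

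**Figure D3:**
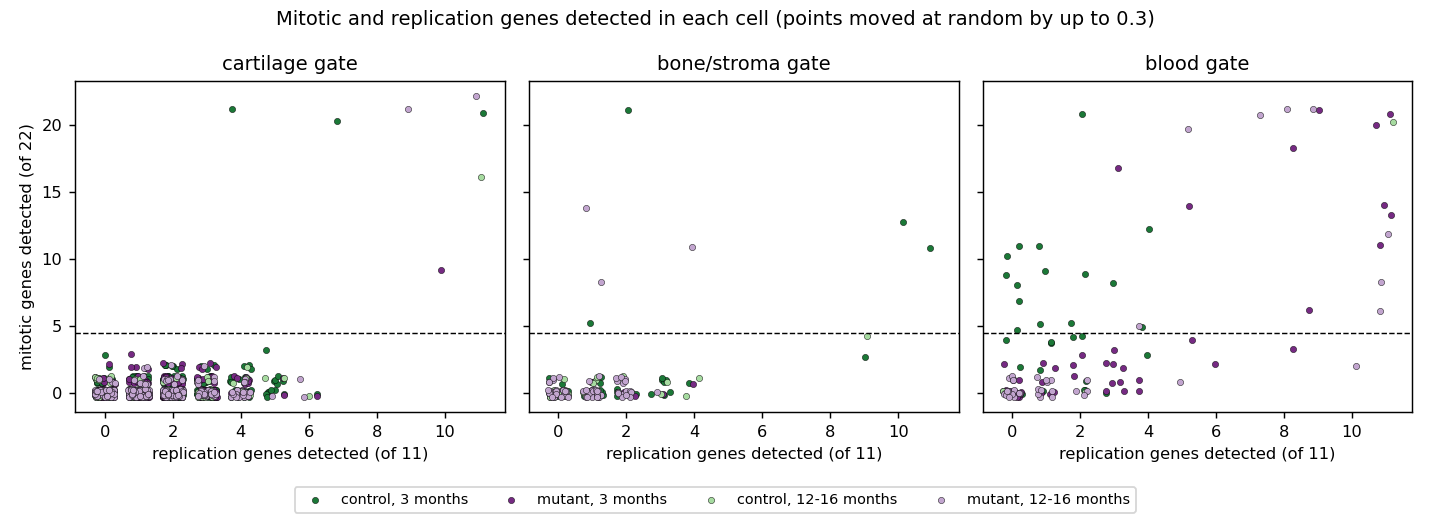
Mitotic genes detected (of 22, vertical axis) against replication genes detected (of 11, horizontal axis) in each cell of the cartilage, bone/stroma and blood gates, coloured by library, with a dashed line below 5 mitotic genes and points shifted at random by up to 0.3 to separate them. In cartilage the other 1279 cells have at most 3 mitotic and 6 replication genes, whereas the blood gate holds cells high in either list or in both.

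In the bone/stroma gate 4 of 44 cells were mitotic in the 3-month control library and 3 of 76 in the 12-16-month mutant. There were 0 of 16 in the 3-month mutant, which by the limit of 3 counts allows a share of up to 18.75% (exact upper limit 20.6%), and 0 of 25 in the 12-16-month control, which allows up to 12% (13.7%). Of the 7 cells, 5 carried both Ibsp and Col1a1. In the 3-month control these had 310, 118 and 604 UMIs of Ibsp, and in the 12-16-month mutant 27 and 51. The first of them, with 21 mitotic genes and 2 replication genes, also had 1 UMI of Prtn3, a granulocyte protease gene, which placed it in the blood gate as well. The other 2 were a 12-16-month mutant cell with 53 UMIs of the pericyte gene Rgs5, and a 3-month control cell of 1103 UMIs whose highest marker list was that of B cells, at 2 UMIs. The rule for the gate is met by a single Runx2 UMI, so it is not limited to osteoblasts.

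Outside the skeletal gates most mitotic cells were shallow or of marrow type. Of the 34 in the blood gate, the highest marker list was that of B cells in 12, general blood genes in 8, granulocyte progenitors in 6, neutrophils in 3, monocytes and macrophages in 2, and T or NK cells, bone and erythroid cells in 1 each. In the 3-month control library 13 of the 15 had under 3000 UMIs, with a median of 1453, and their highest list often rested on fewer than 10 UMIs. In the 3-month mutant the 10 mitotic blood-gated cells had a median of 39639 UMIs, and 5 of them had granulocyte progenitor genes as their highest list. The cell of 193137 UMIs in that library held 34 of the 35 genes. Of the 24 mitotic cells in no gate, 21 had erythroid genes as their highest list and 19 had under 3000 UMIs. In the 3-month control library that list again often rested on fewer than 10 UMIs, and the globin gene Hbb-bs was found in 11 of the 24 cells. The Prtn3 and Cd79a counts that define the blood gate are known from marrow precursors, and their part in its share of mitotic cells was not tested.

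Summed over cartilage-gated cells, the mitotic genes stood at 96.0 CPM (Poisson 95% interval 89.4 to 103) in the 3-month control library, 25.3 (21.4 to 29.7) in the 3-month mutant, 100.1 (83.7 to 119) in the 12-16-month control and 317 (297 to 338) in the 12-16-month mutant. Mutant over control, this gave 0.264 (0.220 to 0.315) at the younger and 3.16 (2.63 to 3.83) at the older age. Of the 793 mitotic UMIs of the 3-month control, 252 lay in the cell with Ibsp and 133 in the cell called a doublet. Their highest marker lists were bone and fibroblast, and the ratio without both cells was not computed. Without the 7 mitotic cells, the levels were 21.2, 19.3, 16.6 and 13.997 CPM and the ratios 0.911 (0.712 to 1.16) and 0.843 (0.484 to 1.51). Both intervals then include 1, with 39 mutant and 21 control UMIs left at 12-16 months. The 7 cells were chosen by these same genes, so leaving them out must lower the sums and is no test of the ratios. The 3, 1, 1 and 2 mitotic cells of the libraries thus held most mitotic UMIs in cartilage, except in the 3-month mutant, where the 1 cell held 36 of 148.

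The replication genes were at 218, 154, 279 and 231 CPM in the same order. Their mutant to control ratio was 0.707 (0.652 to 0.767) at 3 months, and 0.696 (0.639 to 0.758) without the 7 cells. At 12-16 months it was 0.829 (0.728 to 0.944), and 1.04 (0.897 to 1.22) without them. The replication gene with the widest gap in CPM at 3 months was Mcm6, at 77.6 CPM in the control and 41.1 in the mutant, a ratio of 0.529 (0.454 to 0.615), followed by Pcna at 62.2 and 47.0 CPM, 0.756 (0.651 to 0.877). Mcm2, Mcm3, Mcm4 and Mcm5 had ratios of 1.25, 1.07, 1.04 and 1.11 with intervals that include 1. Of the 11 replication genes tested at 3 months, 3 were at least 1.5-fold lower in the mutant library, Mcm6, Tyms and Rrm2, and 0 were higher. Of all genes tested, 16.3% were lower and 22.9% higher by the same limit. Tyms had 98 control and 34 mutant UMIs and Rrm2 had 46 and 3. Of the 46 Rrm2 UMIs, the mitotic cells of the 3-month control held 26, 4 and 4. With 1 library per condition the difference cannot be told apart from a difference between libraries.

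**Figure D4:**
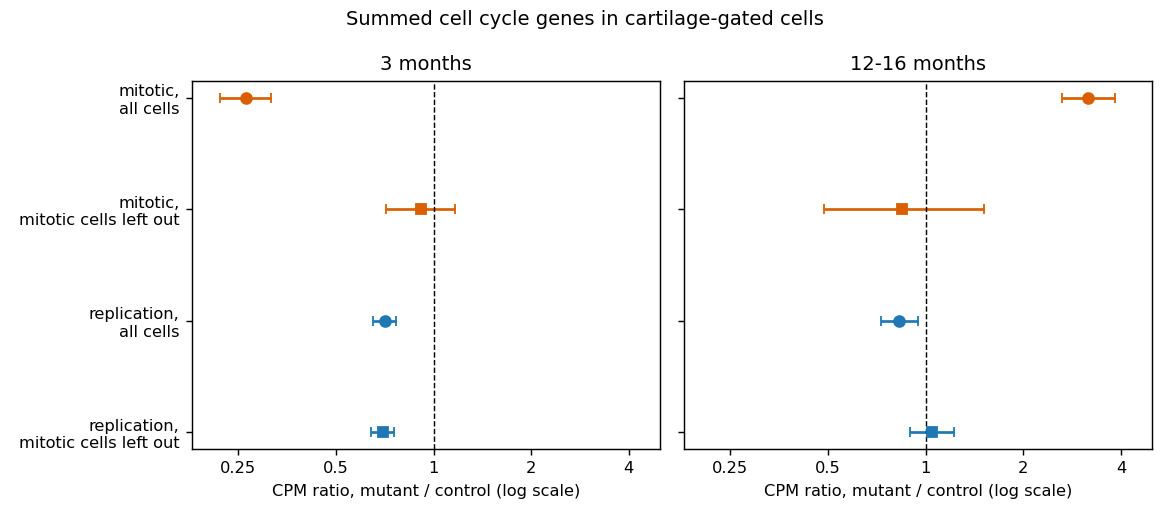
Mutant to control ratio of the summed CPM (horizontal axis, log scale) of the mitotic and the replication genes in cartilage-gated cells at 3 months (left) and 12-16 months (right), with all cells (circles) and without the 7 mitotic cells (squares), and bars for the 95% intervals of counting error. The mitotic ratios of 0.264 and 3.16 move to 0.911 and 0.843 without the 7 cells, while the replication ratio at 3 months stays near 0.70. The 7 cells were chosen by the mitotic genes themselves, so the move of the mitotic ratios is no test.

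Gene by gene, a call was a ratio of at least 1.5-fold among genes with at least 20 UMIs over both libraries. At 3 months 30 of the 35 genes reached this number, and 0 were higher and 21 lower in the mutant library, where 22.9% and 16.3% of all genes tested were. The median log2 ratio was -1.27 for the cell cycle genes and 0.08 for all genes. At 12-16 months 27 were tested, 14 were higher and 3, Mcm3, Mcm5 and Tk1, were lower, against 11% and 11.7% of all genes, with medians of 0.80 and -0.01. From 3 to 12-16 months 10 of 29 were higher and 5 lower in the control libraries (17.9% and 11.6% of all genes), and 22 of 27 higher and 0 lower in the mutant libraries (13.3% and 15.2%). These comparisons share libraries with each other.

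Without the 7 mitotic cells, fewer genes reached 20 UMIs and the calls were few. At 3 months 15 were tested, with 1 higher (Cdc20) and 2 lower (Mcm6 and Tyms) in the mutant library, against 22.8% and 15.5% of all genes. At 12-16 months 9 were tested, with 1 higher (Tyms) and 1 lower (Mcm3), against 10.6% and 12.2%. With age, the control libraries had 3 of 13 higher (Mcm3, Mcm4 and Mcm5) and 2 lower (Stmn1 and Tyms), against 17.4% and 11.7%. The mutant libraries had 4 of 14 higher (Mcm2, Mcm5, Mcm6 and Stmn1) and 1 lower (Nusap1), against 12.4% and 16%. The 7 cells were chosen by the mitotic genes, so leaving them out had to lower the UMIs of those genes. The drop in genes tested and called is therefore no test of the calls made with all cells.

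A second list of 84 cell cycle genes gave the rest of the pathway. Of its 37 other mitotic genes, 29 were tested in cartilage at 3 months with 0 higher and 20 lower in the mutant library, and 30 at 12-16 months with 15 higher and 1 lower. Over all genes, the shares higher and lower were 22.9% and 16.3% at 3 months and 11% and 11.7% at 12-16 months. All counts of genes in this paragraph include the 7 mitotic cells, and none was made without them. H2afz, a histone variant, and Tubb5, a tubulin, were the highest of them by CPM in carriers. Over all gates, H2afz was at 670 CPM (648 to 693) in the 288 carriers against 199 in the 1469 other cells. Tubb5 was at 278 (263 to 292) against 92.1. Of these carriers, 60 were blood-gated and 54 were in no gate. The values, and those of Dut and Pola1 below, are pooled in this way and mix cell types. Of the 16 other replication genes, 1 was higher and 4 lower at 3 months among 14 tested, and 1 was higher and 5 lower at 12-16 months among 10. Dut, which removes dUTP, was at 134.9 CPM in carriers and 40.7 in other cells, and Pola1, the catalytic subunit of DNA polymerase alpha, at 98.5 and 23.3. The 16 pocket protein, E2F and quiescence genes had 2 higher and 2 lower of 11 tested at 3 months, and 3 higher and 2 lower of 11 at 12-16 months. Gas1 and Btg2, 2 genes tied to growth arrest, were at 439 and 363 CPM in the 7 mitotic cartilage cells and at 1788 and 1115 CPM in the other cartilage cells, ratios of 0.246 (0.205 to 0.293) and 0.325 (0.266 to 0.394). Of the 126 Gas1 UMIs in the 7 cells, 53 lay in the 3-month control cell with Ibsp and 70 in the cell called a doublet, and the other 5 cells had 0 or 1 each. Btg2 was in all 7, at 3 to 29 UMIs.

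Of the D cyclins and their kinases, Ccnd2, Ccnd3 and Cdk4 were spread over many cartilage cells, in contrast to the mitotic genes. Ccnd1 and Cdk6 were in fewer. Ccnd3 was at 89.0, 330, 103 and 125 CPM in the order of libraries used above, and was detected in 342 of 562, 324 of 377, 51 of 89 and 152 of 258 cells. The mutant to control ratio at 3 months was 3.71 (3.40 to 4.04). At the later age it was 1.21 (0.989 to 1.48), so the 3-month mutant library stood apart from the other 3. Without the 7 mitotic cells it was 3.70 and 1.24. Ccnd1 was at 16.7, 28.6, 45.9 and 72.3 CPM, in 53, 65, 13 and 47 cells, with ratios of 1.71 (1.36 to 2.16) and 1.58 (1.18 to 2.14). Ccnd2 was at 115, 85.5, 91.7 and 72.0 CPM, with ratios of 0.744 (0.666 to 0.830) and 0.784 (0.623 to 0.991).

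The kinases that pair with the D cyclins differed in opposite directions at 3 months. Cdk6 was at 20.1, 89.99, 62.7 and 116 CPM and in 39, 117, 15 and 60 cells, a ratio of 4.48 (3.75 to 5.37) at 3 months and 1.86 (1.45 to 2.39) at 12-16 months. Of the 166 Cdk6 UMIs in the 3-month control library, 50 lay in a single cell. Cdk4 was at 53.4, 33.4, 37.5 and 45.4 CPM, with ratios of 0.625 (0.525 to 0.741) and 1.21 (0.867 to 1.72). Of the later partners, Cdk2 was at 8.47, 6.84, 5.35 and 8.03 CPM, and the E cyclins were rare. Ccne2 had 35, 16, 18 and 5 UMIs, 13 of the 18 in the mitotic cell of the 12-16-month control, and Ccne1 had 23, 6, 0 and 0. The zeros allow 3 UMIs each by counting.

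Among the CDK inhibitors, some were counted in many cartilage cells and others in few. Cdkn1a, the p21 gene that p53 induces, was at 330, 167, 268 and 235 CPM and gave a ratio of 0.508 (0.472 to 0.547) at 3 months and 0.879 (0.771 to 1.00) at 12-16 months. Cdkn2d, the p19INK4d gene, also had the lower level in the 3-month mutant, at 44.4 and 20.2 CPM (0.454, 0.366 to 0.561). Cdkn1b, the p27 gene, was at 78.8, 60.6, 77.2 and 43.3 CPM, with ratios of 0.769 (0.673 to 0.876) and 0.561 (0.428 to 0.737). Cdkn1c, the p57 gene, was at 73.4, 80.4, 71.9 and 54.5 CPM. Cdkn2c, the p18 gene, was at 17.8, 26.2, 21.4 and 30.0 CPM, and was 13.0-fold (9.91 to 16.8) higher in the 7 mitotic cells than in other cartilage cells. The mitotic cells of the 12-16-month mutant held 23 and 15 Cdkn2c UMIs. Without mitotic cells the ratio of 12-16 to 3 months in the mutant libraries was 0.660 (0.467 to 0.919), against the direction of the levels above. Cdkn2b, the p15 gene, was rare, with 18, 7, 6 and 13 UMIs.

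Cdkn2a, which encodes p16INK4a and ARF and is used as a marker of cell ageing, was rare and had more UMIs in the older libraries. It had 3, 5, 8 and 43 UMIs in 3 of 562, 5 of 377, 4 of 89 and 20 of 258 cartilage-gated cells. The ratio of 12-16 to 3 months was 16.8 (4.04 to 98.6) in the control and 17.6 (6.97 to 56.8) in the mutant libraries. Without the mitotic cells it was 51.5 (6.91 to 2286) and 14.1 (5.50 to 46.3). In the 3-month control, the first-named mitotic cell and the mitotic cell with Ibsp held 1 of the 3 UMIs each. At 12-16 months the mutant to control ratio was 2.46 (1.14 to 6.05), and 1.93 (0.877 to 4.83) without the mitotic cells, 1 of which held 8 of the 43 UMIs. Animal numbers per library are not given in the sources used here, so an age difference cannot be told apart from a difference between libraries.

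**Figure D5:**
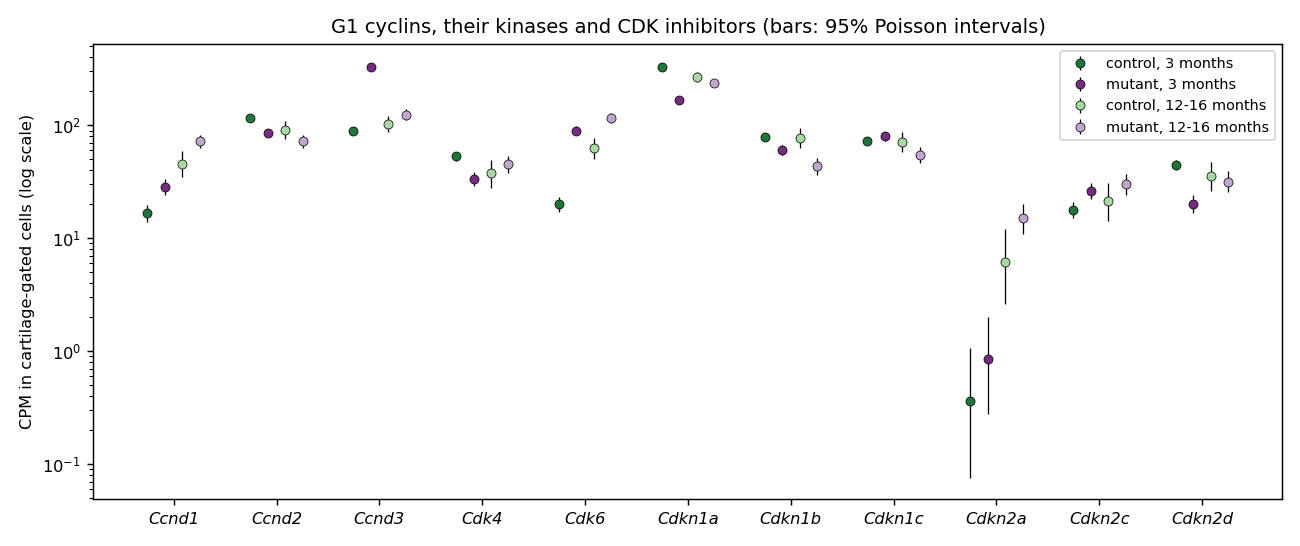
CPM (log scale) of D cyclins, their kinases and CDK inhibitors in cartilage-gated cells of the 4 libraries, with 95% Poisson intervals. Ccnd3 is at 330 CPM in the 3-month mutant against 89.0 to 125 in the other libraries, Cdkn1a is lowest there at 167 CPM, and Cdkn2a is higher at 12-16 months, at 6.12 and 15.0 CPM, than at 3 months, at 0.363 and 0.855.

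Genes outside both lists were ranked by their ratio between carriers and cells with 0 or 1 cell cycle genes, among genes with at least 20 UMIs in the carriers of a gate. As the same cells chose the carriers, the ranking is a description. In cartilage the first 10 included Sdk1, Serpinf1, Hist1h2ap, Dtl, Sfrp4, Shcbp1, Hist1h2ae, Cdkn3 and Gas2l3, with ratios from 38.9 to 23.0. Each had only 1 to 3 UMIs in the 297 cells with 0 or 1 genes, so the ratios and their order are uncertain. The 7 mitotic cells held from 77.8% (Dtl) to 96.8% (Cdkn3) of the carrier UMIs of these genes, apart from Sfrp4 (74.4%) and Serpinf1 (4.08%). Hist1h2ap and Hist1h2ae encode replication-dependent histones, whose near-identical copies can share reads. Dtl, a factor of replication licensing control, had 45 UMIs in 12 of 157 carriers, and Cdkn3, a phosphatase of CDKs, 31 in 7. Serpinf1 and Sfrp4, 2 secreted proteins, had 85.7% and 74.4% of their UMIs in a single cell.

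In the bone/stroma gate the first 10 were Pclaf, Cxcl1, Gm10635, Ncapg2, Hells, Clstn2, Sdk1, Neil3, Cenpp and Lockd. Each had 0 to 5 UMIs in the cells with 0 or 1 genes. Pclaf, a PCNA-binding factor, had 48 UMIs in 6 of 18 carriers against 1 UMI in the 70 cells with 0 or 1 genes. Gm10635 and Clstn2 came from 1 cell each, and 91.3% of the Cxcl1 UMIs from 1 cell. In the blood gate Elane, Ctsg, Mpo and Prtn3, proteases and a peroxidase of granulocyte progenitors, were among the first 10, beside Pf4, Dlg2, S100a4, Tubb4b, Hist1h2ap and Atad2. Elane had 3864 UMIs in 14 of 60 carriers and 1 UMI in the 26 cells with 0 or 1 genes. None of these 10 genes had more than 3 UMIs in those 26 cells. Pf4 was in 5 and Dlg2 in 11 of the 60 carriers, with 74.2% and 78.1% of these UMIs in a single cell. The bone/stroma ratio of Neil3 and the blood ratios of Pf4 and Mpo are bounds, since these genes had no UMI in the cells with 0 or 1 genes.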

How the data were processed

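The authors deposited raw UMI counts per gene and cell barcode for 4 libraries, 1 per condition, made with Cell Ranger 8.0.0 on mm10 with tdTomato added (per the labels and the study's methods). Their later correction of free RNA with SoupX was not repeated, so free RNA can add single UMIs. Groups came from the sample labels. Of 2172 barcodes, 1757 were kept, each with over 750 UMIs, over 500 genes and under 7% mitochondrial counts, with 2154537 to 9429264 UMIs per library. Counts were summed in Python 3.11.15 (scipy 1.17.1, numpy 2.4.6) and divided by all UMIs to give CPM. Shares have exact Clopper-Pearson, CPM exact Poisson and ratios conditional binomial intervals, at 95%. Ratios were called at 1.5-fold among genes with at least 20 UMIs over both libraries. A count of 0 was bounded by 3 counts. The script was tested on simulated data. Doublets were called by the steps of Scrublet at an expected rate of 6%, marked 7, 3, 6 and 4 cells, and were kept. TMM factors of edgeR 4.0.16 served as an alternative scale. Cells were thinned to 2000 UMIs in 20 draws. Coordinates and promoters came from GRCm38.p6.

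The 35 genes, the list of 84 other cell cycle genes, the gates and the limits were chosen with earlier results of these data known. The genes named are the 35, the cyclins, kinases and inhibitors of G1, the 2 genes of each other group highest in carriers, gate and marker genes, Nf1, tdTomato, and the 10 leading genes of each gate, of which 1 is not reported here. Alternatives were other limits on genes per cell, UMIs and folds, thinning, no filter on cells, and changed cartilage gates. Others were doublets, carriers or single cells removed, equal weight per cell, and TMM. A further alternative, leaving out the mitotic cells, was chosen after seeing the data.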

Additional observations from a re-analysis of the deposited data

Results flagged for a closer look

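The mutant to control ratio of the mitotic genes in cartilage-gated cells lay on opposite sides of 1 at the 2 ages, at 0.264 at 3 months and 3.16 at 12-16 months. The difference between the ages was not tested, since each condition is 1 library, and without the 7 mitotic cells the ratios were 0.911 and 0.843. Those cells were chosen by the same genes, so leaving them out is no test.

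Of the genes with a ratio at both ages, 10 had ratios on opposite sides of 1, each with a counting interval that leaves out 1, namely Mki67, Top2a, Ccnb2, Ccna2, Birc5, Cenpa, Cenpf, Kif23, Tpx2 and Stmn1. Cenpf was at 0.139 and 8.96, from 61 control and 6 mutant UMIs at 3 months and 5 and 98 at 12-16 months. Ccna2 was at 0.0544 and 3.31, the first from 1 mutant UMI against 26. Ube2c has no ratio at 3 months, with 47 control UMIs and 0 mutant UMIs, and was at 14.4 (3.82 to 121) at 12-16 months from 2 and 63 UMIs. Ccnb1, Aurka, Aurkb, Bub1, Cenpe and Kif20a also lack a ratio at 1 or both ages, since a library had 0 UMIs. The share of all genes that meet the same rule at both ages was not computed, so the count of 10 has no background. These differences were not tested either, and the UMIs come mostly from the same 7 cells.

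Barcodes that failed the filter on cells also carried the genes. They were used only where the carrier shares were recomputed without that filter. At least 5 of the 35 genes were detected in 49 of 205 such barcodes in the 3-month control library, 8 of 58 in the 3-month mutant, 1 of 28 in the 12-16-month control and 4 of 124 in the 12-16-month mutant.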

How the results depend on the processing

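Of 186 recomputed values, 90 moved by less than their counting interval, or by less than 1.5 times for counts, 90 moved by more and 6 reversed. The carrier shares, given for control then mutant at 3 months, control then mutant at 12-16 months, and the cartilage, bone/stroma and blood gates, became 60.3, 46.5, 41.5, 35.2, 49.9, 34.8 and 63.6% with at least 3 genes, and 6.42, 3.72, 3.70, 3.8005, 0.6998, 4.97 and 34.7% with at least 8. They became 5.58, 2.89, 2.96, 3.09, 0.544, 4.35 and 28.1% with at least 5 mitotic genes, a limit chosen after seeing the data, and 2.24, 2.82, 2.83, 2.82, 0.519, 3.799 and 23.7% after thinning. Without Hmgb2 and Stmn1 the libraries gave 12.3, 7.85, 9.63 and 5.46% and cartilage 4.82%, and above 2000 UMIs the 3-month control gave 15.3%. The mitotic level in cartilage, in the same order of libraries, was 16.9, 13.95, 12.2 and 11.1 CPM without carriers, 66.0, 19.3, 16.6 and 119 CPM without the 1 cell per library with the most of these UMIs, and 21.2, 19.3, 16.6 and 13.997 CPM without mitotic cells. In the 3-month control it was 80.5 CPM without doublets, and with equal weight per cell it was 56.9 CPM there and 61.3 and 103 CPM at 12-16 months. The replication level was 189.9, 128, 157 and 183 CPM without carriers, 204, 140.3, 193 and 210.4 CPM without the 1 cell, 201.5, 140.3, 193 and 201 CPM without mitotic cells, and 234, 168 and 237 CPM in the first 3 libraries with equal weight. The mitotic mutant to control ratio at 3 months was 0.316 without doublets, 0.825 without carriers, 0.911 without mitotic cells and 0.390 with equal weight. At 12-16 months it was 7.15 without the 1 cell and 1.67 with equal weight, and it reversed to 0.910 without carriers and 0.843 without mitotic cells. The replication ratio at 12-16 months reversed to 1.16 without carriers, 1.09 without the 1 cell, 1.04 without mitotic cells and 1.01 with equal weight. These settings remove or weigh down the few cells that hold the UMIs. The share of mitotic UMIs in carriers was 98.4% at 3 genes, 90.3% at 8, 93.0% without Hmgb2 and Stmn1 and 89.3% at 5 mitotic genes. With a minimum of 50 UMIs, 11 genes were lower at 3 months, 9 higher and 0 lower at 12-16 months, 6 higher and 2 lower with age in the control and 13 higher in the mutant libraries. At 2-fold, 6 were higher with age in the control. The shares of all genes at 50 UMIs and at 2-fold were not computed, so these counts have no background. Without mitotic cells the counts were 1 higher and 2 lower at 3 months, 1 and 1 at 12-16 months, 3 and 2 with age in the control and 4 and 1 in the mutant. No paired analysis was possible because each condition has 1 library, and no library could be left out for the same reason. In bone/stroma, 16 to 76 cells per library limit every share.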
